A study of Arabidopsis thaliana with 16 samples.

Results

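Of 22746 Affymetrix probe sets measured in Arabidopsis suspension cells, 18 were selected as raised more by the cellulose synthesis inhibitor isoxaben (IXB) than by thaxtomin A (TA). A probe set was chosen when its mean with IXB was at least 0.4 log2 above methanol, all 4 IXB arrays lay above all 4 methanol arrays, and its difference with IXB exceeded that with TA by at least 0.35 log2. That last amount, the difference with IXB minus the difference with TA, is called the excess here. Both differences chose the members, so the members' values against methanol and between the inhibitors are given as a description. Where members are counted as called on these contrasts, the calls follow in large part from the choice and are no test of it. The choice took 20 probe sets, of which the small heat shock genes AT2G29500 and AT1G53540 (HSP17.6C) were left out by name.

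The cells came from the ecotype Landsberg erecta of Arabidopsis thaliana, grew without light as a liquid culture with the synthetic auxin 2,4-D, and were treated on the third day after subculture. There were 3 groups with 4 biological replicates each: methanol alone (20 µL per 100 mL of cells), TA at 2 µM and IXB at 100 nM, with the same volume of methanol in every flask. Each replicate pooled 2 flasks, which were frozen after 6 h of contact. The deposited log2 values come in 2 sets of 8 columns. One holds TA and methanol, and the other holds IXB and a second processing of the same 4 methanol arrays, so 12 arrays stand behind 16 columns. Column medians were 4.76 to 4.85 in the TA set and 5.20 to 5.30 in the IXB set, so levels are compared only within a set, and TA with IXB only through each one's difference from methanol within its set. The doses differ, and each inhibitor was given at 1 dose and 1 time, so a difference between the compounds and a difference in the strength of their doses cannot be told apart.

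Cellulose, the load-bearing polymer of the plant cell wall, is spun out at the plasma membrane by rosettes of cellulose synthase proteins. Isoxaben is a synthetic benzamide herbicide, and thaxtomin A is a phytotoxin made by Streptomyces species that cause potato scab. Both are known to clear cellulose synthase from the plasma membrane and to make growing cells swell. Plant cells commonly answer a weakened wall with transcripts of wall remodelling, stress and defence.

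Transcripts raised more by IXB were few. IXB raised 430 probe sets by at least 0.4 with all arrays above methanol, and the 18 members were 4.19% of these. With the 2 heat shock genes kept, the count was 20, or 4.65%. The same rule turned round, with TA in place of IXB and no gene left out by name, took 448 probe sets. These were 49.5% of the 905 that TA raised. The comparisons share their methanol arrays. Across the 430 probe sets raised by IXB the median difference was 0.62 with IXB and 0.90 with TA, and the median excess was -0.30. Over all probe sets the median excess was 0.0019 with an SD of 0.179. An excess of at least 0.35 alone was met by 425 probe sets, but 405 of these were under 0.4 with IXB, and in 411 the difference with TA was below 0. A large excess was thus mostly found on transcripts whose mean was lower with TA than with methanol.

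**Figure D1:**
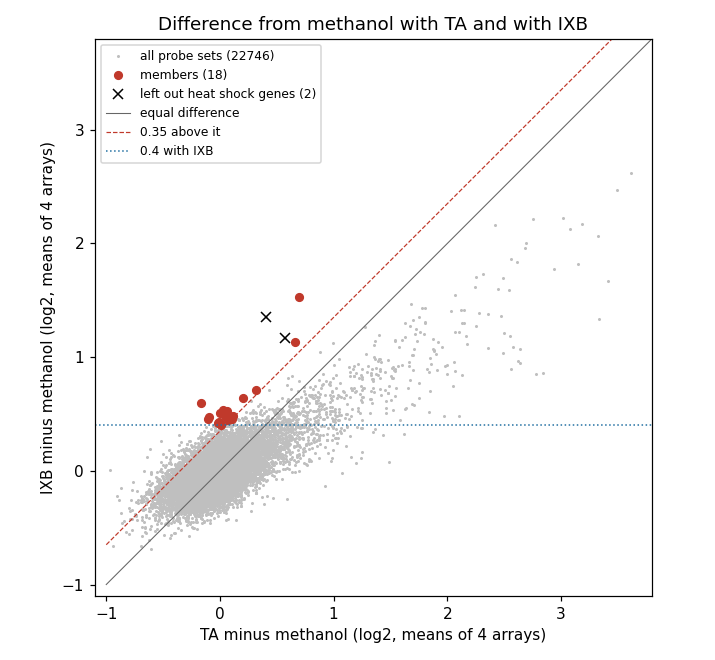
Each point is 1 probe set, with its mean difference from methanol with TA on the horizontal axis and with IXB on the vertical axis (log2, means of 4 arrays each). The 18 members (red) and the 2 heat shock genes left out (crosses) lie above the dashed line at 0.35 and the dotted line at 0.4, while most probe sets with large differences lie below the line of equal difference.

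The members' differences with IXB were small. They ran from 0.40 to 1.53 log2 with a median of 0.48, which is 1.32-fold to 2.89-fold with a median of 1.4-fold, and 14 of 18 were under 0.6. With TA the members ran from -0.17 to 0.70, and 14 of 18 lay within 0.2 of 0. The TA arrays overlapped the methanol arrays in 18 of 18 members, so in 0 of them did all 4 TA arrays lie above methanol. Over all probe sets this share was 7.45%. The rule disfavours probe sets raised by TA, and the share is small for 18 members, so nothing is read from this count. All 4 IXB deviations from the methanol mean lay above all 4 TA deviations in 13 of 18 members, and in the other 5 at least 1 TA array reached the lowest IXB array. The rule asked for an excess of IXB over TA, so such separation follows in part from the choice. Its share over all probe sets was not computed, and nothing is read from this count.

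**Figure D2:**
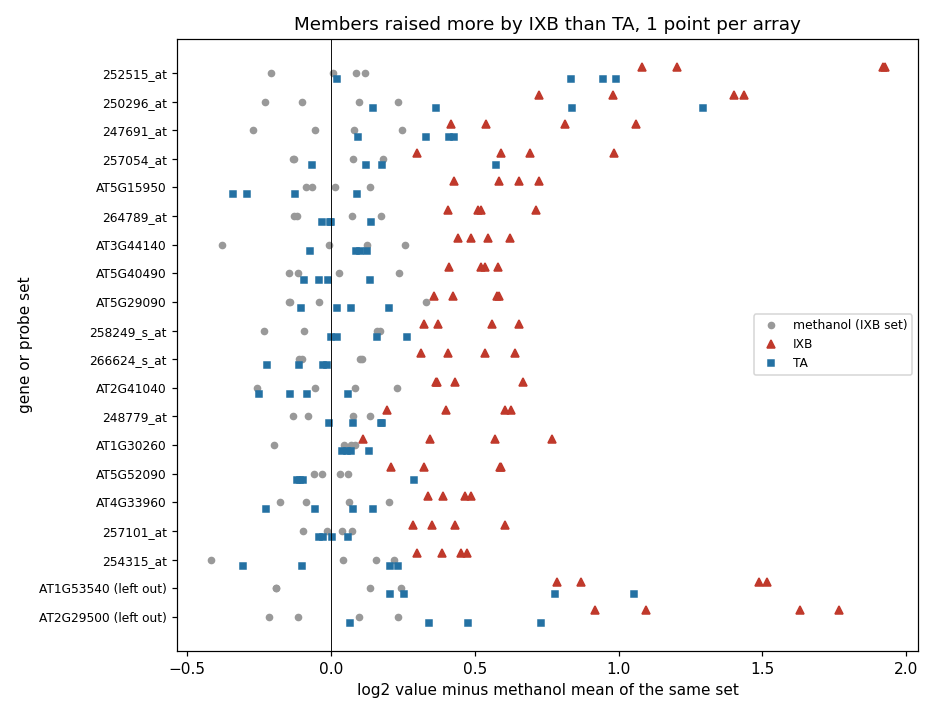
Each row is a member or 1 of the 2 heat shock genes left out, and each point is 1 array: grey circles for methanol in the IXB set, red triangles for IXB and blue squares for TA (4 arrays each). The horizontal axis is the log2 value minus the methanol mean of the same set. In most rows TA lies over methanol around 0 and IXB lies to the right, whereas 252515_at, 250296_at and the heat shock genes have TA arrays up to 0.73 to 1.29.

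Of the 18 members, 8 were paired with exactly 1 gene by the platform's gene table (59.4% of all probe sets have 1), 10 were unnamed here and 0 had several genes. The named genes lie on chromosomes 1, 2, 3 and 4 with 1 each and chromosome 5 with 4. They are not neighbours: the closest pair, AT5G40490 and AT5G29090, has 1316 genes of the gene table between them. No named member's gene has a second probe set on the array. The roles given in the next paragraphs are general knowledge of the loci and no part of the files.

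AT5G15950 encodes an S-adenosylmethionine decarboxylase, which supplies the aminopropyl groups from which spermidine and spermine are built. Its methanol arrays in the IXB set read 6.51, 6.54, 6.62 and 6.74 log2, and its IXB arrays 7.19, 7.26, 7.03 and 7.32. In the TA set, methanol read 6.10, 6.35, 6.26 and 6.34 and TA read 5.97, 6.14, 5.92 and 6.35. IXB arrays stood clear of methanol by 0.29, and 2 of the 4 TA arrays lay below every methanol array. The difference was 0.60 with IXB and -0.17 with TA. Its excess of 0.76 (standard error 0.096) was the largest among the named members, and its difference with TA was the lowest of all 18 members.

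AT2G41040 encodes a protein of the S-adenosylmethionine-dependent methyltransferase family, enzymes that use the same methyl donor that the decarboxylase consumes. Methanol arrays read 6.19, 5.70, 5.90 and 6.04 and IXB arrays 6.33, 6.39, 6.63 and 6.32. TA arrays read 5.31, 5.51, 5.21 and 5.37 against methanol at 5.55, 5.48, 5.31 and 5.49 in that set. Here too 2 of 4 TA arrays were below all methanol arrays, and methanol replicate 1 came within 0.14 of the lowest IXB array. The difference was 0.46 with IXB and -0.10 with TA, an excess of 0.56 (standard error 0.092).

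AT5G40490 encodes an RNA-binding protein with RNA recognition motifs. It read 4.88, 4.91, 5.27 and 5.06 with methanol and 5.44, 5.61, 5.55 and 5.57 with IXB. In the TA set it read 4.98, 5.11, 5.25 and 5.30 with methanol and 5.12, 5.07, 5.30 and 5.15 with TA. The IXB arrays were close together (SD 0.072, n = 4), and all 4 TA arrays lay inside the methanol range. The difference was 0.51 with IXB and -0.0022 with TA, an excess of 0.51 (standard error 0.083). This probe set is unusual in its methanol values: the IXB set put the same 4 arrays 0.13 lower than the TA set did, where probe sets of like level were on average 0.46 higher, and 0.44% of those probe sets had a lower offset.

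AT3G44140, for which no role is given, read 6.16, 5.52, 6.03 and 5.89 with methanol and 6.34, 6.39, 6.45 and 6.52 with IXB. TA arrays read 5.48, 5.52, 5.32 and 5.49, and methanol in that set 5.52, 5.12, 5.45 and 5.48. Methanol replicate 2 was the low array in both sets, and the other methanol arrays lay nearer to IXB. The difference was 0.53 with IXB and 0.06 with TA, and the excess was 0.46 (standard error 0.097). Without methanol replicate 2 this gene no longer met the rule.

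AT5G29090 is a pseudogene in the gene table used here. Methanol arrays read 3.57, 3.57, 4.05 and 3.67 and IXB arrays 4.30, 4.29, 4.14 and 4.07, so methanol replicate 3 came within 0.026 of IXB replicate 4. TA arrays read 3.12, 3.30, 3.43 and 3.25 against methanol at 3.20, 3.04, 3.53 and 3.15, inside the methanol range in 4 of 4. The difference was 0.49 with IXB and 0.05 with TA, and the excess was 0.44 (standard error 0.10).

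AT5G29090 was dim, with a methanol mean of 3.72 in the IXB set against a median of 5.24 over all probe sets. The other named members, AT1G30260, AT5G52090 and AT4G33960, were dim as well, with methanol means of 3.40, 3.37 and 2.95. No role is given for them. AT1G30260 read 3.45, 3.47, 3.20 and 3.49 with methanol and 3.97, 4.17, 3.75 and 3.51 with IXB, so IXB replicate 4 lay 0.028 above the highest methanol array. Its TA arrays, at 3.50, 3.42, 3.40 and 3.43, lay over methanol at 3.40, 3.26, 3.36 and 3.44. The difference was 0.45 with IXB and 0.07 with TA.

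AT5G52090 is measured by a probe set whose probes can bind related transcripts, so its signal may not be of this gene alone. It read 3.31, 3.40, 3.34 and 3.43 with methanol and 3.70, 3.58, 3.96 and 3.96 with IXB. Its methanol arrays in the TA set were close, at 2.93, 2.93, 2.95 and 2.97, and TA lay at 2.83, 2.84, 3.23 and 2.85, below methanol in 3 arrays and above it in replicate 3. The difference was 0.43 with IXB and -0.01 with TA. AT4G33960 read 2.87, 3.02, 3.16 and 2.78 with methanol and 3.42, 3.34, 3.44 and 3.29 with IXB. With TA it read 2.67, 2.80, 2.87 and 2.50 against methanol at 2.75, 2.70, 2.76 and 2.69, with 2 TA arrays above and 2 below all methanol arrays. The difference was 0.42 with IXB and -0.01 with TA, and the excess was 0.44 for AT5G52090 and 0.43 for AT4G33960.

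The 2 members with the largest difference between IXB and methanol were unnamed probe sets. 252515_at read 5.37, 5.05, 5.26 and 5.34 with methanol and 7.18, 6.46, 7.18 and 6.34 with IXB. In the TA set it read 4.79, 4.66, 4.94 and 4.77 with methanol and 5.78, 4.81, 5.63 and 5.74 with TA. It was high with both inhibitors, apart from TA replicate 2, which lay among the methanol arrays. The difference was 1.53 with IXB and 0.70 with TA, an excess of 0.83 (standard error 0.21), the largest of the 18. 250296_at read 6.99, 6.79, 6.66 and 7.13 with methanol and 8.30, 7.62, 8.33 and 7.88 with IXB. Its TA arrays spread from 6.70, 6.92 and 7.39 to 7.85 in replicates 1 to 4, over methanol at 6.75, 6.37, 6.27 and 6.83. The difference was 1.14 with IXB and 0.66 with TA, and 2 of 4 IXB deviations lay above all TA deviations. Its excess of 0.48 fell to 0.30 without TA replicate 1, to 0.18 without replicate 1 of every group, and was 0.72 without replicate 4 of every group.

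Both of these probe sets and both heat shock genes left out by name showed the same order of IXB arrays, with replicates 1 and 3 above replicates 2 and 4. AT2G29500 read 8.11, 7.44, 7.97 and 7.26 with IXB against 6.44, 6.23, 6.13 and 6.58 with methanol, a difference of 1.35 with IXB and 0.40 with TA. AT1G53540 read 5.74, 5.11, 5.76 and 5.03 with IXB against 4.38, 4.06, 4.06 and 4.49, a difference of 1.17 with IXB and 0.57 with TA. That order was seen in 6 of 18 members, 1 of 8 named members, 144 of 430 probe sets raised by IXB (33.5%) and 15.7% of all probe sets, so it was no more frequent among the members than among the probe sets raised by IXB. Small heat shock proteins are chaperones that hold unfolding proteins in solution. In the list of 19 heat shock genes 4 were measured on a probe set with 1 gene, none of them a member. limma, with Benjamini-Hochberg adjusted p under 0.05 over all probe sets, called 3 of 4 higher with IXB (AT2G29500, AT1G53540 and AT5G48570) and 1 of 4, AT2G29500, higher with IXB than with TA. Over all probe sets these shares were 2.2% and 2.05%. AT2G29500 and AT1G53540 met the rule on these same contrasts before they were left out, so their calls restate the choice and nothing is read from them.

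The remaining 8 unnamed members ran from 0.40 to 0.71 with IXB, from -0.09 to 0.32 with TA and from 0.35 to 0.57 in excess. 3 of them are described for their brightness or the size of their values, a choice made after their values were seen. 264789_at was the brightest member, at 8.29, 7.99, 8.00 and 8.19 with methanol and 8.83, 8.52, 8.63 and 8.64 with IXB. Its TA arrays, at 7.61, 7.58, 7.75 and 7.60, lay within 0.14 of the methanol mean of that set, 7.61. The difference was 0.54 with IXB and 0.03 with TA.

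266624_s_at had the largest excess of the 8, 0.57 (standard error 0.086), with 5.60, 5.59, 5.38 and 5.39 for methanol and 6.13, 6.03, 5.81 and 5.90 for IXB. With TA it read 5.16, 5.24, 5.26 and 5.05 against 5.36, 5.37, 5.17 and 5.18, so 2 TA arrays lay below all methanol arrays. Its suffix marks a probe set whose probes can bind related transcripts, which was so for 3 of 18 members, AT5G52090 among them, and 4.66% of all probe sets. 247691_at had the largest differences of the 8, 0.71 with IXB and 0.32 with TA, and 3 of its 4 TA arrays were above all methanol arrays. Its IXB arrays read 5.85, 5.33, 5.60 and 5.20 against methanol at 4.73, 4.51, 4.87 and 5.03.

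The difference with TA, which the rule used, had overlapping ranges in named and unnamed members. It ran from -0.17 to 0.07 with a median of -0.01 over the 8 named members, and from -0.09 to 0.70 with a median of 0.11 over the 10 unnamed, or 0.07 without the 2 highest differences with IXB. The 3 members with a TA difference of at least 0.3 were all unnamed. Averaged over the named members, the IXB arrays deviated from methanol by 0.47, 0.51, 0.50 and 0.45 and the TA arrays by -0.07, 0.01, 0.02 and -0.02. The rule asked for every IXB array to lie above methanol, so IXB means above 0 on every array follow from the choice. Over the unnamed members the IXB arrays averaged 0.86, 0.58, 0.74 and 0.53, with replicates 1 and 3 high.

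At the edge of the rule on IXB, the members just inside were 254315_at with a difference of 0.403, 257101_at with 0.418 and AT4G33960 with 0.420. Just outside were AT2G02440 with 0.397, AT5G35660 with 0.396 and 260689_at with 0.385, all with an excess over 0.4. At the edge of the excess, 248779_at with 0.35, 258249_s_at with 0.368 and AT1G30260 with 0.374 were inside. AT1G47655, at 0.61 with IXB and 0.27 with TA, missed the rule with an excess of 0.342, and 266830_at and 255896_at missed it with 0.321 and 0.315. Within 0.05 of the threshold on IXB lay 8 probe sets below and 5 above, and of the threshold on the excess 3 below and 5 above, so the list has no natural edge. No probe set met both thresholds and failed the separation of the arrays.

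limma was fitted over all 22746 probe sets, with calls at Benjamini-Hochberg adjusted p under 0.05. The members were chosen on these same contrasts, so their calls are no test of them. For IXB against methanol 2.2% of all probe sets were called higher, and 16 of 18 members were, with AT1G30260 the 1 named member that was not. For IXB against TA 2.05% were called higher, and 13 of 18 members were, among them the same 7 named genes. For TA against methanol 5.41% were called higher, against 1 of 18 members, which is unnamed. The rule used these contrasts, so the counts describe the members and nothing is read from them. They also rest on all 12 arrays: leaving out 1 array, or 1 replicate number in every group, left 5 to 13 members called for IXB against methanol, 7 to 15 for IXB against TA and 0 or 1 for TA against methanol. With the replicate number as a block, 3 members were called for TA against methanol. The background moved as well: the 467 probe sets called higher for IXB against TA became 150 without IXB replicate 2, 159 without IXB replicate 4 and 67 without replicate 2 of every group. For IXB against methanol 501 became 217 to 487.

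A description on arrays that the choice did not use came from leaving out 1 replicate number in every group, choosing with the other 3 by the same rule, and reading the excess in the left-out arrays. Leaving out replicate 1 took 17 probe sets, with a median excess of 0.47 in the arrays used and 0.40 in the left-out arrays, where 16 were above 0. For replicate 2 these values were 27 probe sets, 0.42, 0.31 and 22 above 0. For replicate 3, 38 probe sets were taken, with 0.41 in the arrays used, 0.19 in those left out and 28 above 0. For replicate 4, 36 were taken, with 0.47, 0.03 and 21 above 0. Over all probe sets the median in the left-out arrays lay between -0.01 and 0.03. The share above 0 over all probe sets was 48.0%, 55.1%, 49.7% and 49.7% for replicates 1 to 4. Among the probe sets taken it was 94.1%, 81.5%, 73.7% and 58.3%. The excess of probe sets chosen in this way was therefore smaller in new arrays each time, and near that of all probe sets when replicate 4 was the one left out. Over the 4 rounds 87 of 118 choices were above 0 in the left-out arrays, with probe sets counted once for each round that took them.

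**Figure D3:**
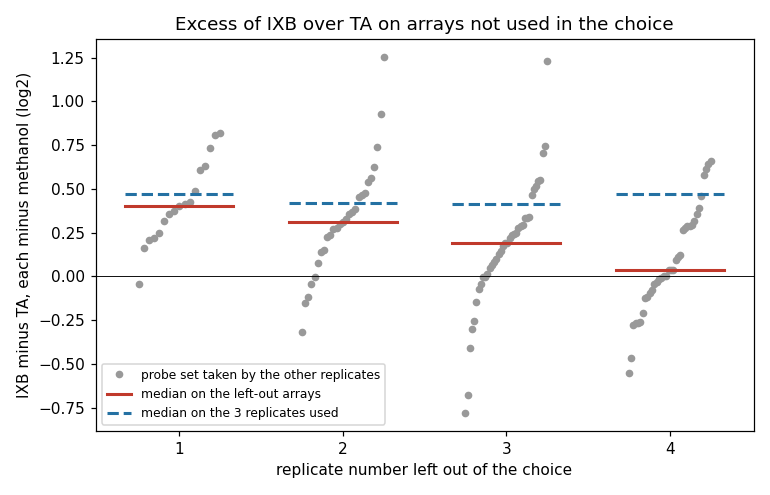
Each grey point is a probe set chosen without the replicate number on the horizontal axis, and the vertical axis is its excess of IXB over TA (log2) in the left-out arrays. The red line is their median, 0.40, 0.31, 0.19 and 0.03 for replicates 1 to 4, and the dashed blue line is the median in the 3 replicates used for the choice, 0.47, 0.42, 0.41 and 0.47.

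In these rounds 7 members were chosen 4 times of 4, among them AT5G15950, AT3G44140, AT5G40490 and 252515_at, 3 members 3 times and 8 members 2 times. Of the named members, AT5G15950, AT5G40490 and AT5G29090 met the rule in 12 of 12 choices that left out 1 array. AT5G29090 was lost, however, without replicate 1 of every group and without probe sets of mean under 5. All these choices reuse most of the values that chose the members. The counts therefore follow in part from the choice, and nothing is read from them.

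The scale of the 2 sets bears on the excess, since it subtracts a difference in one set from a difference in the other. The same 4 methanol arrays stand in both, and deviations from their mean had an SD in the TA set that was 0.889 to 0.910 times that in the IXB set for probe sets with a methanol level up to 4.01. For brighter probe sets above 5.24 the ratio was 0.981 to 0.994. A dim transcript thus had larger differences in the IXB set for the same arrays. With the IXB difference multiplied by this ratio 12 members still met both thresholds, 5 of them named, and with the slope of a line through the deviations, 0.738 to 0.861, 6 did: AT5G15950, AT3G44140, AT5G40490 and 3 unnamed. The slope also holds the noise of the 2 processings, and the reverse slope was 0.855 to 0.943. 5 members lay in the levels up to 4.01. On the slope's scale the excess of the 18 members ran from 0.25 to 0.67.

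**Figure D4:**
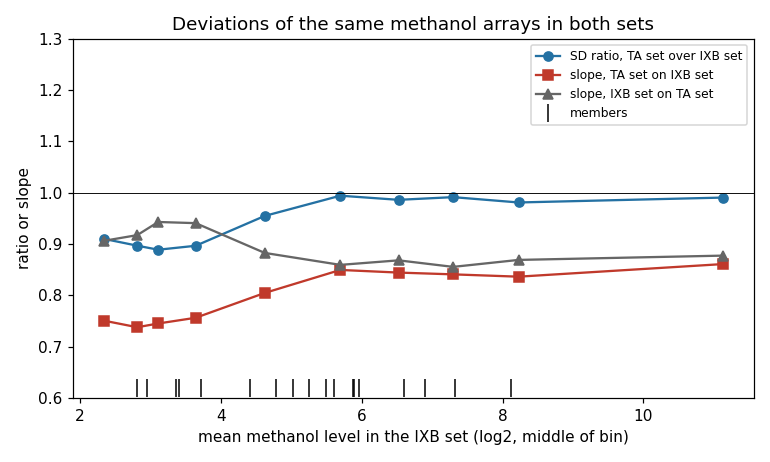
For 10 bins of probe sets by methanol level (horizontal axis, log2, middle of each bin), points show how the deviations of the same 4 methanol arrays compare between the sets: the ratio of their SDs (blue circles), the slope of the TA set on the IXB set (red squares) and the reverse slope (grey triangles). Black ticks mark the methanol levels of the 18 members. The SD ratio is 0.889 to 0.910 in the 4 dimmest bins and 0.981 to 0.994 in the 5 brightest.

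None of the 8 named members is in the 20 gene lists of wall, stress, defence and growth genes that were looked at. The lists held 0 to 16 measured genes each, while 13513 probe sets have 1 gene, so nothing is read from this absence. The 10 unnamed members could not be matched to a list, 1 list had 0 genes measured, and the rule took out 2 genes of the heat shock list by name. Some wall genes in those lists were called higher with both inhibitors. Pectin methylesterases were called higher in 3 of 4 measured genes with each inhibitor. Of 10 measured xyloglucan endotransglucosylase/hydrolases 3 were called higher with IXB and 4 with TA. Over all probe sets 2.2% were called higher with IXB and 5.41% with TA. Of 16 measured expansins, proteins that loosen the wall, 4 were called higher with IXB, against 2.2% of all probe sets, and 3 with TA, against 5.41%. EXPB3 was called lower with TA, by a difference of -0.55 (limma, adjusted p = 0.0067). EXLA1, EXLA2 and EXLA3 were called higher with both, at 1.19, 1.43 and 1.41 with IXB and 1.40, 1.77 and 2.04 with TA. EXPA15 was called higher with IXB only, at 0.47 (limma, adjusted p = 0.027) against 0.22 with TA (adjusted p = 0.185). It was not called between the inhibitors (adjusted p = 0.169), and its excess of 0.25 was under the threshold of the rule. Of 15 measured family 9 glycosyl hydrolases, the family of plant endoglucanases, 2 were called higher with each inhibitor, GH9B5 and GH9B7. The shares over all probe sets were again 2.2% with IXB and 5.41% with TA. GH9B5 was 1.61 with IXB and 2.24 with TA, and was called lower with IXB than with TA (limma, adjusted p = 0.0098). GH9B8, at 0.04 with IXB and -0.35 with TA, was called higher with IXB than with TA (limma, adjusted p = 0.028). Over all probe sets 2.05% were called higher and 2.72% lower between the inhibitors.

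Genes of the low oxygen response had a median excess of -0.92. The members' positive excess was set by the rule, and the 430 probe sets raised by IXB also had a negative median, -0.30. Of 16 low oxygen genes measured, 1 was called higher with IXB, against 2.2% of all probe sets, and 13 with TA, against 5.41%. Between the inhibitors 7 were called lower with IXB than with TA, against 2.72% of all probe sets. The list's mean on the IXB arrays varied, at -0.45, 0.44, 0.89 and 0.85 above the methanol mean, and the members' mean on the same arrays was 0.69, 0.55, 0.63 and 0.50. The rule fixed that the members lie above methanol on every IXB array, so nothing is read from this, and the part of the low oxygen response in the result was not tested. Markers of other cell types were measured by 3 probe sets (RCA of green tissue and EXPA7 and EXPA18 of root hairs), and none was called in any comparison. Their mean deviation ran from 0.02 to 0.09 on IXB arrays and from -0.14 to 0.08 on TA arrays, while RCA stood at 9.61 on average with methanol, so this marker was not absent from these dark-grown cells. Its part in the result was not tested. Array signal is relative to total RNA, so fewer cells of a kind and less RNA per cell cannot be told apart.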

How the data were processed

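RNA of Arabidopsis suspension cells was hybridised to Affymetrix arrays. The deposited values are log2 signals made by the authors with robust multi-array average (RMA), per the submitters' processing notes; its version is not given in the sources used here. The value table has 16 columns for 12 arrays, because the 4 methanol arrays stand in both sets per the labels; that the sets were processed separately is read from the values. From 22810 probe sets 64 AFFX controls were left out. Genes come from the platform's gene table, and a probe set was named only with exactly 1 gene. HSP17.6C was taken as AT1G53540.

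The members and gene lists were chosen with earlier results of these data known. Named were all members with 1 gene, the 2 unnamed members with the largest IXB difference, and probe sets at the thresholds. Genes past the limma threshold were named only for the lists of heat shock genes, expansins and glycosyl hydrolases. In the other lists, genes past it were counted for some lists and named for none. Outside this rule, 264789_at, 266624_s_at and 247691_at were named after their values were seen, and RCA, EXPA7 and EXPA18 because they are all the measured markers of other cell types. The contrasts come from limma 3.58.1 (lmFit and eBayes, R 4.3.3) with Benjamini-Hochberg adjustment, IXB against TA on deviations from each set's methanol mean, and tested on simulated data, as was the rule. Means, SDs and counts were computed in Python 3.11.15. Standard errors of the excess come from that fit. The number of arrays, 4 a group, limits the precision.

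Deviations of same-numbered IXB and methanol arrays had correlations of 0.147, 0.101, 0.132 and 0.144. For TA and methanol they were 0.032, -0.063, 0.295 and 0.078. The array of the same number was the best match for replicates 1 and 4 with IXB and 3 and 4 with TA. These values do not settle whether the numbers pair the samples in either comparison. The calls and standard errors given above come from fits without pairing, unless a block is named. An alternative fit with the replicate number as a block was run for every comparison. Sequences were not used here, and no motif or protein feature was computed.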

Additional observations from a re-analysis of the deposited data

Results flagged for a closer look

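In 3 of 40 groups of 4 arrays looked at (the 8 named members and the 2 unnamed members with the largest IXB difference), 1 array stood far from the other three by Dixon's test, which flags about 1 in 20 groups by chance. For AT1G30260 methanol replicate 3 of the IXB set was the low one at 3.20. For AT5G52090 TA replicate 3 was the high one at 3.23. For 252515_at TA replicate 2 was the low one at 4.81. The excess met the threshold for AT5G52090 and 252515_at also without the replicate concerned in the TA group, and AT1G30260 did not meet the rule without methanol replicate 3.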

How the results depend on the processing

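The number of members depended on the thresholds: 18 became 36 with 0.3 on the IXB difference, 8 with 0.5, and 8 with 0.45 on the excess. It was 6 with the IXB difference brought to the scale of the TA set by slope and 11 without probe sets of mean under 5; a scaling by SD ratio, chosen after seeing the data, left 12. Leaving out 1 replicate number or 1 array (the latter added after seeing the data) gave 15 to 38, with 38 without replicate 3 and 36 without replicate 4. The members' median excess of 0.44 was 0.54 with 0.45 on the excess, 0.49 with 0.5 on the IXB difference, 0.52 with all 16 columns quantile normalized together, 0.51 without dim probe sets, and 0.41 to 0.49 in the leave-outs. AT5G15950, AT5G40490, 252515_at and 264789_at were kept under every alternative listed. No direction of a named member's excess reversed. The members were chosen for an excess of at least 0.35 on these same arrays, and other thresholds leave each excess unchanged. The members kept and the unreversed directions therefore follow largely from the choice, and nothing is read from them.

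With the replicate number as a block, 625 probe sets were called higher for IXB against methanol in place of 501, 1316 for TA against methanol in place of 1230, and 566 higher and 687 lower for IXB against TA in place of 467 and 618. Members called were then 17, 3 and 14, in place of 16, 1 and 13. The rule used the same contrasts, so nothing is read from these counts. With each IXB array asked to exceed the methanol array of its number, 18 members were chosen. Without 1 replicate number or array, calls over all probe sets were 217 to 487 higher for IXB against methanol, 903 to 1144 for TA against methanol, and 67 to 535 higher and 229 to 677 lower for IXB against TA; fewer samples enter these fits. Dim signal limits 7 of the 18 members, whose methanol mean was under 5, as was that of 47.8% of all probe sets.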
